A study of Homo sapiens with 6 samples.

Results

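This account covers 9 human genes of the complement system in T47D cells after knockdown of the transcription factor ELF5: the C1 proteases C1R and C1S, the C1 inhibitor gene SERPING1, the convertase components C3 and CFB, the membrane regulators CD46, CD55 and CD59, and clusterin (CLU). They are 9 of the 26364 genes in the table of the whole series, and were taken by matching their symbols exactly. The genes were chosen by function and by their values in this very comparison, so their levels and fold changes are given below as a description, with no p-value. How many passed the threshold used for all genes is stated once, as a count from which nothing is read. All 9 passed the minimum mean of 10 normalised reads over the 6 libraries that 16032 genes passed, C1S only just, with a mean of 10.9.

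T47D is an established human breast cancer line of the luminal A type, which expresses hormone receptors. Cells transfected with a control siRNA (siNC) were compared with cells transfected with one that targets ELF5 (siELF5), both collected at 48 h. Each group held 3 libraries made with 1 siRNA product, and the control and the targeting siRNA are different products, so every difference compares both products as well as their targets. The series title separates the part of ELF5 in epithelial integrity from that of EHF, a related factor.

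Complement is a cascade of plasma and tissue proteins that marks surfaces for removal and can end in a pore, the membrane attack complex. C1r and C1s start the classical route and are shut off by C1 inhibitor, C3 is the component on which all routes converge, and factor B joins it in the alternative-pathway convertase. Host cells protect themselves with CD46 and CD55, which act on the convertases, and with CD59, which blocks the pore, while clusterin, a secreted chaperone, holds the late complex in solution. Tumour cells of epithelial origin commonly carry these membrane regulators.

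ELF5 is an ETS-family factor, a class that binds DNA around a GGAA core, so the start regions of members that moved in different ways are shown here with that core in view. RefSeq promoter windows (GRCh38.p14, from 250 bases before to 50 bases after a gene's start) were at hand for 5 of the 9 genes, namely CD46, CD55, CD59, CFB and C1R. The windows of 4 genes are printed 5′ to 3′ along the gene's own strand, at 1 start each, with GGAA and its reverse complement TTCC in capitals. CD55, lower in siELF5, lies at chr1:207321428-207321727 on the + strand. CD46, which overlapped between the groups, lies at chr1:207751788-207752087 on the + strand. CD59 and CFB, both higher in siELF5, lie at chr11:33736430-33736729 on the - strand and chr6:31945845-31946144 on the + strand.
CD55: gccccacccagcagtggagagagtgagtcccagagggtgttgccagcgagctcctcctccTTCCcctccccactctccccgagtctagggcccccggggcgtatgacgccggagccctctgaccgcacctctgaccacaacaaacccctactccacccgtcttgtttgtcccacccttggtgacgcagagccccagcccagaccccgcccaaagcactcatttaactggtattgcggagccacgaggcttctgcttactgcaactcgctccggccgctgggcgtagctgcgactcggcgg
CD46: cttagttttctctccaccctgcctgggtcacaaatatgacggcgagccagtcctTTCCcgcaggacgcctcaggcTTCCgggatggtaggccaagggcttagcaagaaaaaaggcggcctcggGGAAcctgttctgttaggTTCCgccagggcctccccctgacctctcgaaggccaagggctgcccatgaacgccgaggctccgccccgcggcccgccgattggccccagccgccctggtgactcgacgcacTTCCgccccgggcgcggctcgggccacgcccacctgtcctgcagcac
CD59: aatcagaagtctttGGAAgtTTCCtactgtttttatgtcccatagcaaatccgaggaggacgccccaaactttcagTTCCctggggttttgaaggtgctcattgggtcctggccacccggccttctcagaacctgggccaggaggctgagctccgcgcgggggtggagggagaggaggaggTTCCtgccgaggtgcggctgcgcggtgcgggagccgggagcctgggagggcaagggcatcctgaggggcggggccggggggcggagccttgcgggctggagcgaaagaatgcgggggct
CFB: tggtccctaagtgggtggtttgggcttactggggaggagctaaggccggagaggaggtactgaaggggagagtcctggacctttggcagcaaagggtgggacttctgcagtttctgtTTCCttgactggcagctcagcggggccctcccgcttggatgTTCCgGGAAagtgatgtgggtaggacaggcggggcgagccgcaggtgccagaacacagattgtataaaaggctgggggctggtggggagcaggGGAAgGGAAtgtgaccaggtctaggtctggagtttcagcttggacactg

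The core occurred 1 time in the CD55 window, 5 times in that of CD46, 4 times in that of CD59 and 5 times in that of CFB. Across all 35116 promoter windows of this length, 95.5% held at least 1 such core on either strand and the median window held 3, so its presence does not set these genes apart. The longer ETS-type string AGGAAG, on either strand, was found in 33.6% of all windows and in none of those of the 5 genes. The string TTCNNNGAA, the STAT-type palindrome, occurred once each in the windows of CFB and CD59 printed above, against 7.66% of all windows. Among windows not printed, that of another CD59 start overlaps the printed one and holds the same site, which is not a further occurrence. The string also occurred at 1 C1R start, and not at the remaining starts of CD59 and C1R. GAAANNGAA, part of the interferon-type element, occurred once in the CFB window, against 8.11%. The string GAANNTTC occurred once in the printed CD59 window, against 6.77% of all windows. A kappaB-type string was found in 5.91% of all windows and in none of those of the 5 genes. These are letter matches within the windows and not measured binding.

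The 9 genes spanned a wide range of levels. Per kilobase of the longest annotated transcript, siNC libraries averaged 15502 normalised reads for CLU, 11874 for CD46, 2094 ± 57.5 (SD, n = 3) for CD59 and 2036 ± 50.6 (SD, n = 3) for CD55. CD59 and CD55, next to each other in that order, did not differ beyond their spread. C3, CFB, SERPING1, C1R and C1S followed with 55.9, 34.9, 14.5, 8.28 and 3.03 normalised reads per kilobase. On this scale CLU lay above 98.8% of 19395 genes with a known length and CD46 above 98.3%, while C3 lay above 36.4% and C1S above 15.7%. In siELF5 CD46 stood first with 12229 per kilobase, ahead of CLU with 8436, and CD59 stood at 2988, above CD55 at 1104. The membrane regulators and CLU were thus the abundant ones in both groups. C3, CFB, the initiating proteases and their inhibitor gene SERPING1 were the low ones.

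Values are normalised read counts, that is, the reads assigned to a gene divided by a size factor of the library. Log2 fold changes and their standard errors come from limma fitted on log2(value + 1) over all tested genes, which understates the change of low genes, and p-values are two-sided and adjusted over those genes. ELF5 itself stood at 28.1% of its siNC mean in siELF5, or -1.83 on the log2 scale (SE 0.033, limma adjusted p = 3.26e-12, n = 3 per group). The libraries held 66.8 to 83.7 M assigned reads. Over all 16032 genes, 3818 were higher and 3741 lower in siELF5 at a limma adjusted p under 0.05, so 23.8% of tested genes passed upwards and 23.3% downwards, and the 2 groups of 3 libraries did not overlap for 55.9% of genes. Of the 9 complement genes, 5 passed that threshold upwards (C1R, SERPING1, C3, CFB and CD59), 2 downwards (CLU and CD55) and 2 in neither direction (C1S and CD46), and the groups did not overlap for 7. The median log2 fold change of the 9 was 0.51, and that of all tested genes 0.00. Because the 9 genes were chosen with these values known, nothing is read from those counts or from that median. One library property went with the groups. A GC score, the deviation of GC-rich genes from that of genes of middling GC content in a library, was -0.41, -0.22 and -0.07 in siNC replicates 1, 2 and 3 and 0.23, 0.28 and 0.22 in siELF5. Fold changes are therefore also given with each library's GC trend removed, and with the score as a covariate, which takes up part of the group difference too. Since the RNA is bulk, fewer cells of a type and less RNA per cell cannot be told apart.

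**Figure D1:**
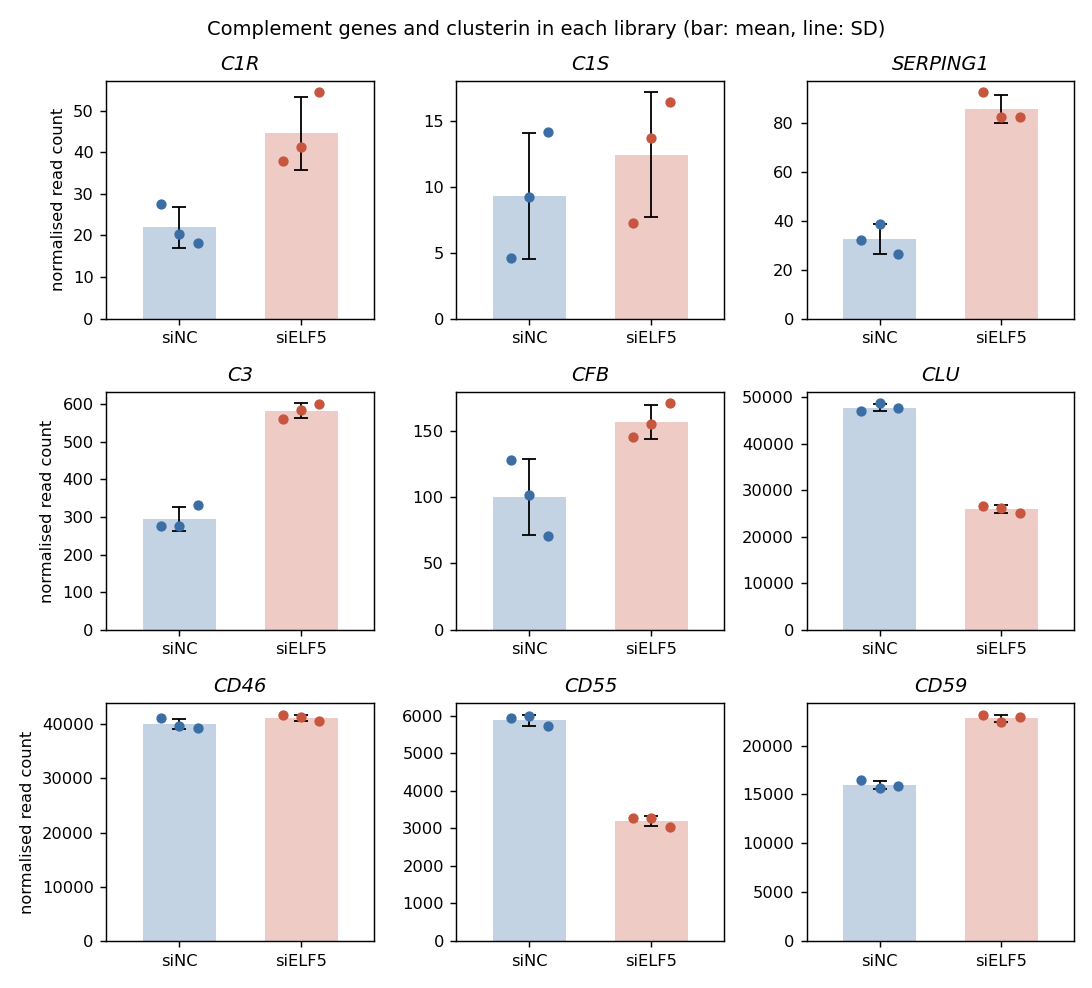
Normalised read count (vertical axes, linear and starting at 0) of each of the 9 genes in the 3 siNC and 3 siELF5 libraries. Points are libraries, bars are means and lines are SD; the points of the 2 groups overlap for C1S and CD46 and are apart for the other 7.

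Clusterin was the most abundant of the 9 in siNC and was lower by a similar proportion in every siELF5 library. Its normalised read counts were 47022, 48624 and 47588 in siNC replicates 1 to 3 and 26700, 26126 and 25127 in siELF5 replicates 1 to 3. The lowest siNC library lay far above the highest siELF5 library, and the SD within a group was at most 812 reads. The siELF5 mean, 25984 ± 796 (SD, n = 3), was 54.4% of the siNC mean of 47745 ± 812 (SD, n = 3), or -0.88 on the log2 scale (SE 0.031). It was -0.85 with the GC trend removed and -0.91 (SE 0.079) with the GC score as a covariate. Among all tested genes 1.77% had a lower log2 fold change.

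The decay-accelerating factor CD55, a GPI-anchored protein that takes apart the C3 convertases, showed almost the same proportion. It had 5946, 5997 and 5722 normalised reads in the siNC libraries and 3269, 3275 and 3032 in the siELF5 libraries. The groups were far apart, and the library with the lowest value of each group was its replicate 3. The siELF5 mean of 3192 ± 139 (SD, n = 3) was 54.2% of the siNC mean of 5889 ± 146 (SD, n = 3), at -0.88 on the log2 scale (SE 0.043), -0.84 after GC correction and -0.83 (SE 0.108) with the GC score as covariate. The 95% interval of the fold was 0.51 to 0.58, and that of CLU 0.52 to 0.57.

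CD59, the other GPI-anchored regulator, which stops the assembly of the membrane attack complex, moved the opposite way. Its values were 16460, 15603 and 15866 in siNC and 23118, 22396 and 22883 in siELF5, with no overlap. The mean went from 15976 ± 439 (SD, n = 3) to 22799 ± 368 (SD, n = 3), which is 1.43-fold and 0.51 on the log2 scale (SE 0.031). With the GC trend removed it was 0.56 and with the GC score as covariate 0.60 (SE 0.077). Of the exonic bases annotated to CD59, 6.07% are shared on the same strand with AL049629.2, so a small part of its reads cannot be assigned to one of them. CD59 and ELF5 lie on the same chromosome, 11, with 6 protein-coding genes between them (FBXO3, LMO2, CAPRIN1, NAT10, ABTB2 and CAT). All 6 were tested, none was higher and 3 were lower by the limma test. Of all tested genes 23.8% were higher and 23.3% lower, and 6 genes are too few to set against those shares. Among the 3 was FBXO3, next to CD59, with 5135 ± 149 in siNC and 4558 ± 174 in siELF5 (SD, n = 3, log2 fold change -0.17, limma adjusted p = 0.00403).

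CD46, the transmembrane cofactor through which C3b and C4b are cleaved, had nearly the same level in both groups. The siNC libraries had 41095, 39715 and 39276 normalised reads and the siELF5 libraries 41686, 41380 and 40608. These ranges overlapped, since siNC replicate 1 lay above siELF5 replicate 3. The siELF5 mean of 41225 ± 556 (SD, n = 3) was 103% of the siNC mean of 40028 ± 949 (SD, n = 3), and the log2 fold change was 0.04 (SE 0.029) with a 95% interval of -0.02 to 0.10. It was 0.08 (SE 0.022) after GC correction, 0.12 with quantile normalisation and 0.13 (SE 0.073) with the GC score as covariate, a larger value under each. CD46 has the lowest transcript GC content of the 9 genes, 38.2%.

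Ratios of reads within one library do not depend on how libraries were scaled, and they showed the change of proportion among the surface regulators directly. CD59 reads per CD55 read were 2.77, 2.602 and 2.77 in siNC and 7.07, 6.84 and 7.55 in siELF5, so the mean ratio went from 2.71 ± 0.097 to 7.15 ± 0.362 (SD, n = 3), or 2.64-fold. CD46 reads per CD55 read went from 6.80 ± 0.155 to 12.9 ± 0.41, and CD46 reads per CD59 read from 2.51 ± 0.036 to 1.81 ± 0.037. None of these 3 ratios overlapped between the groups. CLU had more reads than CD46 in every siNC library, at 1.19 ± 0.043 per CD46 read, and fewer in every siELF5 library, at 0.63 ± 0.011.

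Summed per kilobase, the 3 surface regulators together came to 16404, 15900 and 15709 normalised reads in siNC and 16526, 16343 and 16093 in siELF5. The sums overlapped, with means of 16004 ± 359 and 16321 ± 217 (SD, n = 3). Within the sum CD55 went from 12.7% ± 0.278 to 6.76% ± 0.219 and CD59 from 13.1% ± 0.197 to 18.3% ± 0.338, while CD46 took 74.2% ± 0.112 and 74.9% ± 0.157. On this scale the composition therefore differed where the total did not separate the groups. The total depends on the transcript lengths used, 7631 bases for CD59, 2892 for CD55 and 3371 for CD46. Without division by length, the summed normalised reads of the 3 genes were higher in each siELF5 library than in any siNC library. These are RNA levels, and surface protein was not measured in these libraries.

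**Figure D2:**
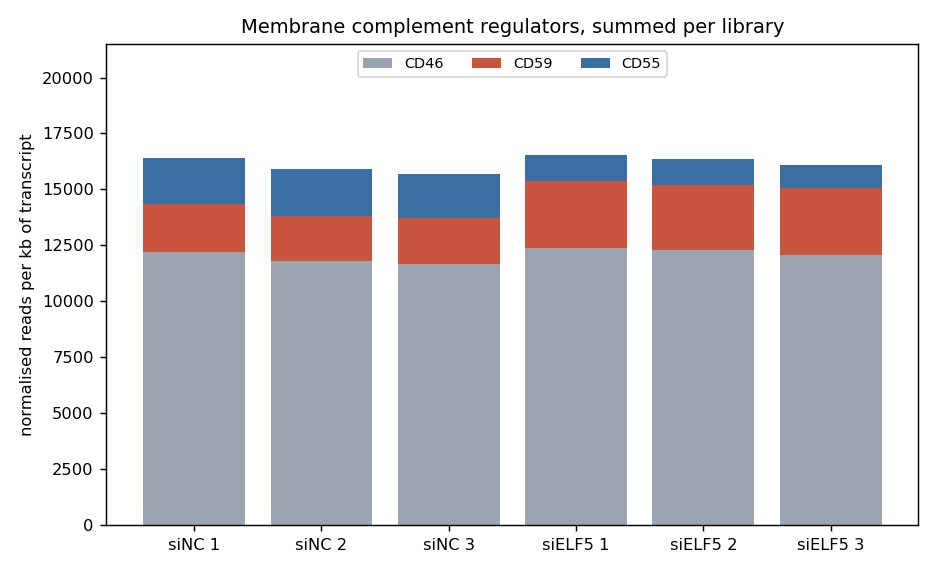
Normalised reads per kilobase of transcript (vertical axis, linear, from 0) of CD46, CD59 and CD55 stacked for each of the 6 libraries. The totals lie between 15709 and 16526 in all 6, while the CD55 segment is smaller and the CD59 segment larger in each siELF5 library than in any siNC library.

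C3, the hub of the cascade, was a low to middling transcript here, and higher in each siELF5 library. Its normalised read counts were 274.8, 275.8 and 332.0 in siNC and 560.6, 584.8 and 599.8 in siELF5, without overlap. The siELF5 mean of 581.7 ± 19.8 (SD, n = 3) was 1.98-fold the siNC mean of 294.2 ± 32.7 (SD, n = 3), or 0.99 on the log2 scale (SE 0.099). It stayed at 0.97 after GC correction and was 0.62 (SE 0.246) with the GC score as covariate. Set against the 2 genes that were lower, C3 reads per CLU read were 3.64-fold and C3 reads per CD55 read 3.65-fold higher in siELF5.

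CFB encodes the serine protease of the alternative-pathway convertase. It had 127.6, 101.4 and 70.8 normalised reads in siNC and 144.9, 155.0 and 170.5 in siELF5. The groups did not overlap, though siNC replicate 1 lay not far below siELF5 replicate 1. The spread among siNC libraries, a coefficient of variation of 28.4%, was above the 10.2% that counting gives if every read is independent. The recovered read numbers of CFB were even in all libraries but siNC replicate 1, so counting error may exceed that value. The siNC library with the lowest GC score had the highest CFB value, and the one with the highest score the lowest. The mean went from 99.98 ± 28.4 to 156.8 ± 12.9 (SD, n = 3), or 0.68 on the log2 scale (SE 0.202), 0.70 after GC correction and 1.84 (SE 0.422) with the GC score as covariate. Annotation places 45.5% of the exonic bases of CFB also in C2 or AL645922.1 on the same strand, so both CFB and C2 values are uncertain. C3 reads per CFB read were 3.19 ± 1.33 and 3.72 ± 0.181 in siNC and siELF5, and overlapped.

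SERPING1 encodes C1 inhibitor, the serpin that inactivates C1r and C1s. Its libraries held 32.2, 38.7 and 26.3 normalised reads in siNC and 92.4, 82.4 and 82.2 in siELF5, from 26 to 102 reads. No siNC library came near a siELF5 library. The mean went from 32.4 ± 6.21 to 85.7 ± 5.82 (SD, n = 3), 2.64-fold with a 95% interval of 1.86 to 3.69. The log2 fold change was 1.39 (SE 0.228), 1.36 after GC correction and 1.76 (SE 0.630) with the GC score as covariate. Without the covariate SERPING1 was the highest of the 9, and with it C1R and CFB, at 1.85 and 1.84, lay above it.

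C1R and C1S encode the paired proteases of the C1 complex and lie next to each other on chromosome 12. C1R had 27.6, 20.3 and 18.2 normalised reads in siNC and 38.0, 41.2 and 54.4 in siELF5, which did not overlap. Its mean went from 22.03 ± 4.93 to 44.6 ± 8.69 (SD, n = 3), 2.02-fold with a 95% interval of 1.28 to 3.09, and 0.99 on the log2 scale (SE 0.294). For C1R that value was 1.01 after GC correction and 1.85 (SE 0.789) with the GC score as covariate. C1S had 4.60, 9.22 and 14.2 in siNC and 7.24, 13.7 and 16.4 in siELF5, and these overlapped almost entirely. The log2 fold change of C1S was 0.43 (SE 0.524) with a 95% interval of -0.71 to 1.57, and it turned to -1.64 (SE 1.33) with the GC score as covariate. With 4 to 16 reads per library that interval was wide, and a difference for C1S was not resolved. The coefficient of variation of C1R in siNC was 22.4%, against 21.7% if every read is counted as independent. For C1R, C1S and SERPING1, however, 17 of the 18 recovered read numbers were even. If 2 reads stood for each fragment, counting alone would give 30.6% for C1R, and the read numbers of all 3 genes would overstate their precision. Whether reads were counted in that way was not tested. Reads of 11.4% of the exonic bases of C1R could also belong to C1RL.

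The fold changes were next set against GC content. Transcript GC content ran from 38.2% for CD46 to 57.2% for SERPING1. Removing each library's GC trend moved the 9 log2 fold changes little. Over the 3 estimates CLU lay between -0.91 and -0.85, CD55 between -0.88 and -0.83 and CD59 between 0.51 and 0.60, whereas those of C3, CFB, C1R, SERPING1 and C1S spread more widely. The part of the GC score in these differences cannot be told apart from that of the siRNA.

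**Figure D3:**
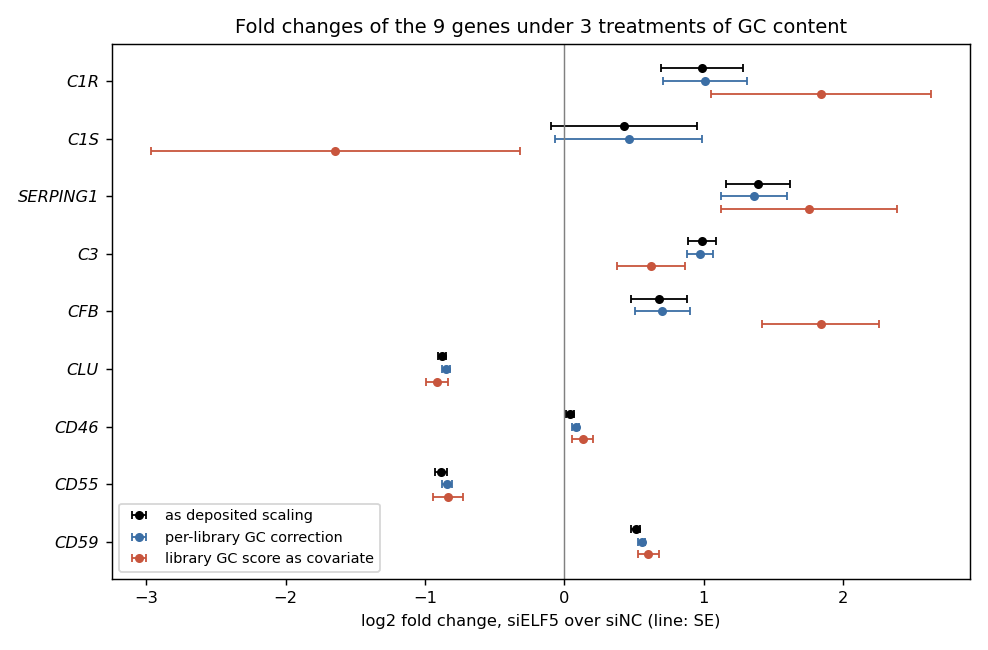
Log2 fold change of siELF5 over siNC (horizontal axis, lines: SE) for each gene, with the deposited scaling, with a GC correction per library and with the library GC score as covariate. CLU stays between -0.91 and -0.85, CD59 moves from 0.51 to 0.60 and C1S from 0.43 to -1.64 with the covariate.

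**Figure D4:**
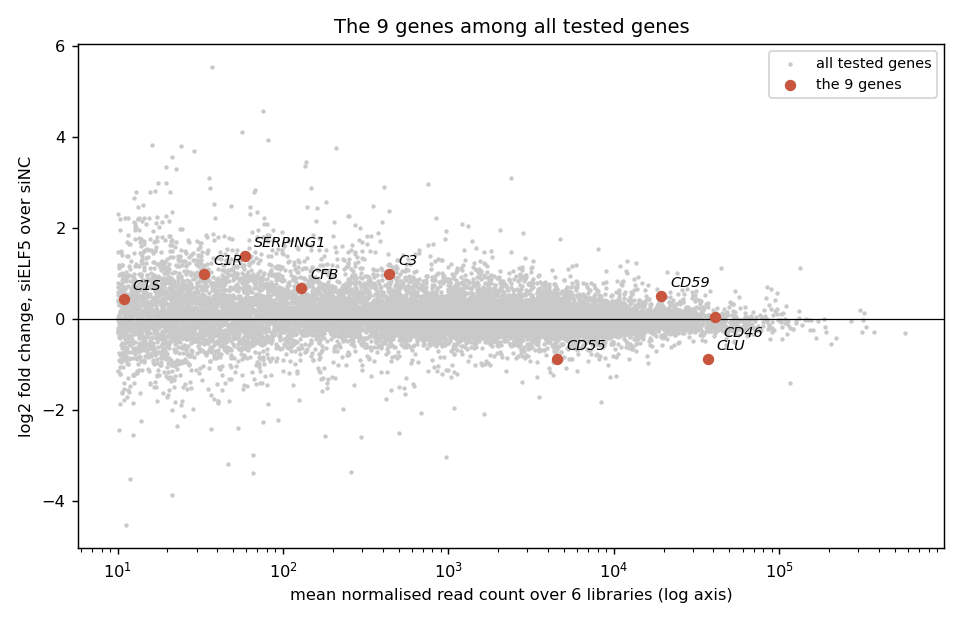
Log2 fold change of siELF5 over siNC (vertical axis) against the mean normalised read count of 6 libraries (horizontal, log axis) for 16032 tested genes in grey and the 9 complement genes in red. CLU and CD55 both lie at -0.88, and SERPING1 is the highest of the 9 at 1.39.

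The genes closest to CLU in their profile over the 6 libraries were sought among 13805 others with a mean of at least 50, by the root mean square difference of centred log2 values. They were CDH13, at 0.0154, PAM, at 0.0161, and CD55, at 0.0266. CDH13, which encodes a GPI-anchored cadherin, went from 430.9 ± 3.85 to 233.5 ± 7.08 (SD, n = 3) and PAM, the peptide-amidating enzyme, from 7135 ± 42.1 to 3868 ± 87.0, both with a log2 fold change of -0.88. The nearest to C3 were OAF, at 0.0463, LOC730202, at 0.0497, and ADORA1, an adenosine receptor, at 0.0650. OAF went from 201.4 to 378.7, and ADORA1 from 340.4 to 704.5. The likeness is over 6 libraries of 2 groups, so it mainly states that these genes share a fold change.

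Genes next to the members gave values of their own. LPCAT3, beside C1S, was higher in siELF5 (975.3 ± 8.04 to 1230 ± 27.9, SD, n = 3, log2 fold change 0.33, limma adjusted p = 0.000402), and so was GPR108, beside C3 (log2 fold change 0.15, limma adjusted p = 0.0127). NELFE beside CFB, UBE2L6 beside SERPING1 and EPHX2 beside CLU did not pass the threshold, at -0.01, 0.08 and 0.10 on the log2 scale. C4BPA and CR1L, the complement genes beside CD55 and CD46, had means of 4.64 and 2.33 and were not tested, and CR2, also beside CD55, is given below.

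Beyond the 9, the complement system was read through a list of 53 further genes. Of these, 42 had a read, 21 reached a mean of 10 and were tested, 7 were higher, 3 were lower and 11 did not pass, beside the 23.8% and 23.3% of all tested genes that were higher and lower. Their median log2 fold change was 0.28, against 0.00 over all tested genes. C1QB and C1QC of the C1q recognition unit, the ficolin FCN1, C4A, C4B, C8A, C8B, CFI, CFHR2, CPN1 and VSIG4 were listed at 0 in all 6 libraries. C4A and C4B are near-identical copies, which a counter can leave unassigned, so their 0 says little.

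In the initiating routes 2 of 4 tested genes were higher and none lower, too few to set against the share of all genes. C1RL, a relative of C1R, rose from 331.3 ± 17.8 to 416.0 ± 10.9 (SD, n = 3, log2 fold change 0.33, limma adjusted p = 0.0107), with 13.4% of its exonic bases shared with C1R. C2, the partner of C4 in the classical convertase, rose from 22.3 ± 3.32 to 42.2 ± 10.2 (log2 fold change 0.87, limma adjusted p = 0.0299). The C2 call was lost under 9 of 18 alternatives, and 33.3% of its exonic bases are shared with CFB and others. MASP2 and COLEC11 had log2 fold changes of 0.13 and 0.11 and did not pass.

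In the alternative pathway CFD, the protease that cleaves factor B, had 82.8, 97.8 and 129.5 normalised reads in siNC and 318.8, 325.8 and 275.2 in siELF5. The groups were far apart, at 1.58 on the log2 scale (SE 0.167, limma adjusted p = 8.46e-06). Its transcript is rich in GC, 65.4%, and the change was 1.11 after GC correction and 0.66 with the GC score as covariate, where limma gave an adjusted p of 0.31. Properdin (CFP), which stabilises the convertase, had a log2 fold change of -0.02 with an SE of 0.41.

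In the terminal pathway C5, the first component of the lytic complex, rose in every siELF5 library. It had 855.5, 790.4 and 834.0 normalised reads in siNC and 1467, 1647 and 1567 in siELF5, or means of 826.6 ± 33.2 and 1560 ± 89.9 (SD, n = 3). The log2 fold change was 0.91 (SE 0.064, limma adjusted p = 2.48e-07), and 0.94 with the GC score as covariate (limma adjusted p = 0.00145). C8G did not pass, at 0.50 (SE 0.295). C6, C7 and C9 had means under 10.

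Of the soluble regulators, 2 of 5 tested were higher and 1 lower. CFHR3 rose from 181.6 ± 22.7 to 318.1 ± 18.7 (SD, n = 3, log2 fold change 0.81, limma adjusted p = 0.000171) and CFHR4 from 31.7 ± 10.7 to 67.6 ± 20.4 (log2 fold change 1.08, limma adjusted p = 0.0122). Both belong to a family of close copies, so their counts are uncertain. Vitronectin (VTN), which like clusterin binds the late complex in solution, fell from 26.5 ± 7.202 to 11.5 ± 3.74 (log2 fold change -1.15, limma adjusted p = 0.0313), a call lost under 6 of 18 alternatives. Of the exonic bases of VTN, 13.6% are shared with AC002094.3 on the same strand. C4BPB, at 0.41, did not pass.

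Of the other membrane regulators, SUSD4 fell from 89.6 ± 4.27 to 60.2 ± 10.5 (SD, n = 3, log2 fold change -0.58, limma adjusted p = 0.0293), a call lost under 8 of 19 alternatives, and CSMD1 and CSMD2 did not pass. Of the receptors, C5AR2, the second receptor of C5a, rose from 1226 ± 70.6 to 1511 ± 52.3 (log2 fold change 0.30, limma adjusted p = 0.00123). C1QBP, a mainly mitochondrial protein that binds the globular heads of C1q, fell from 9079 ± 186 to 8142 ± 383 (log2 fold change -0.16, limma adjusted p = 0.00489). C5AR1, CR2 and ITGB2 had log2 fold changes of 0.28, 0.18 and 0.02 and did not pass. Without siELF5 replicate 1 the number of the 21 that passed fell from 10 to 6, and with the GC score as covariate 2 remained above the threshold, C5 and CFHR4.

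**Figure D5:**
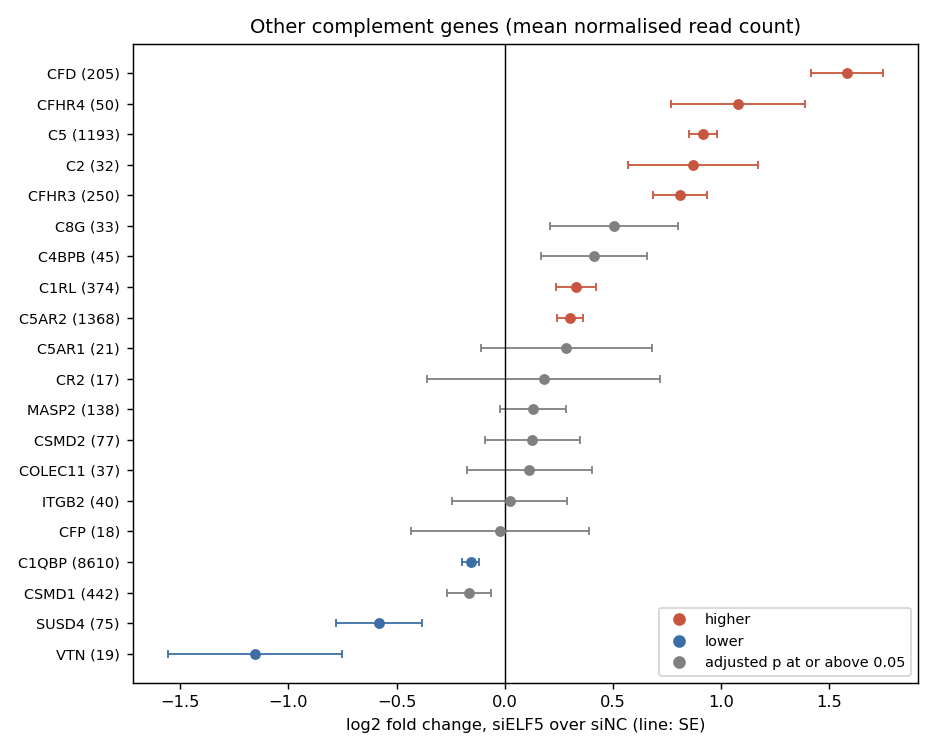
Log2 fold change of siELF5 over siNC (horizontal axis, lines: SE) for 20 of the 21 further complement genes that were tested, with the mean normalised read count in brackets. Red marks the 7 genes that were higher, blue the 3 that were lower, and grey 10 that did not pass an adjusted p of 0.05.

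CD55 and CD59 need a GPI anchor to reach the surface, so the genes that build and attach it were counted. Of 29, 28 were tested, 9 were higher, 3 were lower and 16 did not pass, beside 23.8% higher and 23.3% lower of all tested genes, and the median on the log2 scale was 0.07. The 6 with the smallest limma adjusted p were all higher: PIGW (0.33 on the log2 scale, limma adjusted p = 5.66e-05), PIGS (0.24), PIGQ (0.87), GPAA1 (0.65), PIGN (0.22) and PIGZ (0.47). PIGQ and GPAA1 are rich in GC, at 66.7% and 64.3%, and stood at 0.31 and 0.26 after GC correction. The 3 that were lower, named after their values were seen, were PIGX, PIGP and PIGA, at -0.14, -0.25 and -0.15. PIGA encodes the catalytic subunit of the first step, whose loss removes CD55 and CD59 from blood cells in paroxysmal nocturnal haemoglobinuria. After GC correction 10 GPI anchor genes were higher and 6 lower, and with the GC score as covariate 3 of the 28 passed.

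Cytokine receptors and factors known to act on complement genes or clusterin formed a list of 24, all of them tested, of which 12 were higher, 2 lower and 10 did not pass, and the median on the log2 scale was 0.13. Of all tested genes 23.8% were higher and 23.3% lower, and after GC correction 9 of the 24 were higher and 3 lower. The 2 chains of the interleukin-6 receptor were both higher. IL6R went from 590.3 ± 45.6 to 1072 ± 49.2 (SD, n = 3, log2 fold change 0.86, limma adjusted p = 1.87e-06), and IL6ST, the shared signalling chain, had a log2 fold change of 0.37 (limma adjusted p = 3.99e-07). The interleukin-1 receptor gene IL1R1 went the other way, with 2197, 2360 and 2081 normalised reads in siNC and 1160, 1066 and 1265 in siELF5 (log2 fold change -0.93, SE 0.070, limma adjusted p = 4.36e-07). CEBPA, NFKB2 and CEBPD also passed, at 0.46, 0.26 and 0.90, but all are rich in GC and stood at -0.05, 0.00 and 0.08 after GC correction. HSF2, the other gene that was lower and named after its value was seen, stood at -0.22. With the GC score as covariate 4 of the 24 passed.

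Of 21 plasma proteins induced in the acute phase, 7 were tested and 2 were higher, SERPINA1 (log2 fold change 1.15) and FGB, the fibrinogen beta chain, which went from 5.90 ± 4.66 to 17.6 ± 4.002 (SD, n = 3, log2 fold change 1.64, limma adjusted p = 0.0285). With a siNC mean under 10, FGB was tested only through its siELF5 values, so its call carries little weight, and the acute phase count was 1 under 6 of 19 alternatives. Of 5 receptor genes for clusterin, LRP8 and VLDLR, named here after their values were seen, were tested and neither passed, with log2 fold changes of 0.10 (limma adjusted p = 0.0750) and 0.30 (limma adjusted p = 0.0605).

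Markers of cell types were read beside these results, as sums of normalised reads per library. All 9 luminal epithelial markers were abundant, with sums of 731642 to 778670 in siNC and 677548 to 700684 in siELF5. By the limma test 4 of these 9 were higher in siELF5 and 2 lower, with a median log2 fold change of 0.05. Of all tested genes 23.8% were higher and 23.3% lower. The 2 that were lower, KRT8 and KRT18, weigh heavily in the sum, with means of 219676 and 103953. Their log2 fold changes were -0.41 and -0.45. Of 7 fibroblast markers 5 had means under 10, and the sums, 4227 to 5409 and 3383 to 3892, came mostly from COL1A1. The 7 leukocyte markers summed to 265.6 to 272.3 and 330.5 to 383.1, with 3 of them under 10, the defining PTPRC included. The 5 basal markers summed to 633.6 to 677.1 and 1016 to 1085, with 2 of them under 10. Most of the basal sum came from ACTA2, with a mean of 547.7 and a log2 fold change of 1.05. The 4 endothelial markers, 3 of them with means under 10, summed to 30.4 to 39.7 and 12.3 to 14.5. Hepatocytes are the main source of plasma complement, and their 5 markers all had means under 10, with APOH at 0. The luminal, leukocyte, basal, fibroblast and endothelial sums all differed between the groups without overlap, the luminal, fibroblast and endothelial ones being lower in siELF5 and the others higher, and their part in the values of the complement genes was not tested.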

How the data were processed

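Total RNA of T47D cells was sequenced in 6 libraries, 3 siNC and 3 siELF5, grouped by the sample titles. The kit (TruSeq RNA v2, per the labels) does not mark strand. STAR 2.6, Subread, featureCounts 1.6.3, DESeq2 1.22.1 and the build hg19 are named in the submitters' processing notes; for the counting options, strand included, the sources used here give nothing. The deposited per-library values are a signal, gene counts divided by a size factor; all were whole multiples of the smallest value of their column (100% within 1e-06), so whole reads were recovered. Among genes with 1 to 20 recovered reads 67.6% to 71.7% of the counts were even, against 49.7% to 52.0% at 1001 to 10000 reads, so counting error of low genes may exceed what the read number gives. The authors' deposited log2 fold change, test score and p-value columns, from DESeq2 per the file headers, entered no test.

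With R 4.3.3, a limma 3.58.1 model (intensity trend, no covariate) was fitted to log2(value + 1) of the 16032 genes with a mean of at least 10, two-sided, with Benjamini-Hochberg adjustment and a threshold of 0.05. edgeR 4.0.16 and DESeq2 1.42.0 on the recovered reads were alternatives. On simulated data for 16032 genes, 93% of 200 genes changed by 1 on the log2 scale were recovered with 4.62% false calls. The simulation used the same low dispersion for every gene and no GC trend, so its rates need not hold for these libraries. Whether replicates came from separate cultures is not labelled, so the p-values reflect variation among libraries that could be purely technical; pairs differed beyond counting noise (chi-square per degree of freedom 4.26 to 11.4). The labels do not say whether same-numbered libraries belong together, and the main model did not pair them. The correlations of their deviations were 0.01, -0.03 and -0.06, which cannot settle the point with 3 libraries per group. Transcript length and GC content are those of each gene's longest GENCODE 29 transcript (96.2% of tested genes); the GC correction subtracts a loess curve (span 0.3) per library. GENCODE is on GRCh38 and served for names, sequence properties and shared exonic bases only. Neighbours and the genes between CD59 and ELF5 were taken from RefSeq. The submitters' notes name hg19, so the shared bases need not be those of their counting.

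The 9 genes and the lists were chosen with earlier results of these data known, so no p-value is given for the 9 genes and none adjusted over a list alone. Named were the 9 genes; all further complement genes past the threshold, and those tested that did not pass, 1 of which is not reported here; from each other list, the genes that passed, at most 6 in order of adjusted p (PIGX, PIGP, PIGA, HSF2, LRP8 and VLDLR were added after their values were seen); the 3 genes most like CLU and C3; and neighbours of the 9.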

Additional observations from a re-analysis of the deposited data

How the results depend on the processing

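The analysis was repeated under 19 alternatives. CLU, CD55, CD59, C3, CFB, C1R, SERPING1 and CD46 kept the sign of their log2 fold change under every one that gave a value. With the library GC score as covariate, C1S reversed to -1.64, and the numbers past the threshold were 1184 over all genes (527 higher, 657 lower), 2 further complement genes, 3 GPI anchor genes, 4 genes of inducing signals and 1 acute phase gene. The score separates the groups, so the covariate also takes up part of the contrast and widens the standard errors. The acute phase count was likewise 1 with DESeq2, without the intensity trend and with a minimum mean of 50. For clusterin receptor genes 2 passed with equal column totals, with the GC correction per library and with the replicate block with GC correction; in each case the cause was not tested. When 1 library was left out, counts ranged from 6 to 9 for further complement genes (6 without siELF5 replicate 1), 1 to 2 for acute phase genes and 0 to 1 for clusterin receptors. The replicate block gave 7174 genes in all and 8 further complement genes. C2 and VTN lost their calls under it, and by their labels the libraries of a block share only a number. The median log2 fold change of all genes was 0.03 with equal column totals and -0.03 with quantile normalisation. Depth limits C1S, C1R and the other genes with fewer than about 50 reads.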

Other observations

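The fold changes in the authors' deposited table lay close to those given here, at -0.88 for CLU and CD55, 0.51 for CD59, 0.98 for C3 and 1.40 for SERPING1.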
